A study of Mus musculus with 21 samples.

Results

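The data are 4 libraries of mouse embryonic fibroblasts (MEFs) that form 2 pairs for a hairpin against Dnmt1, out of 21 libraries in the series. In the pair without a p53 hairpin, cells that received shDnmt1 were set against control cells that received a Flag construct and shLuc, a hairpin against luciferase, a gene that mouse cells lack. In the pair with it, cells that received shp53 and shDnmt1 together were set against cells that received shp53 alone. The pairs share no library. The 4 libraries were chosen by these labelled constructs, not by any measured value, and each group holds 1 library. The cells were ICR MEFs from embryos of 13.5 days, at passage 2, and every library came from cells infected for 48 hours with retrovirus carrying its constructs. The labels give no clone, sex or number of embryos behind a library, and say nothing of the hairpin sequences. The other 17 libraries are 3 more in the same table, among them 1 of MEFs labelled Dnmt1 that serves here as another reference, and 14 of MEFs given the reprogramming factors Sox2, Klf4, Oct4 and c-Myc (SKOM cells). The SKOM libraries are labelled day 5, 7 without vitamin C (Vc-) and 7 with it (Vc+). They carried the control constructs, or Dnmt1, shDnmt1 or the Tet1 catalytic domain (Tet1CD) alone, or Tet1CD with Dnmt1 or with shDnmt1, or shp53 with shDnmt1. No SKOM library carried shp53 without shDnmt1.

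Dnmt1 is the maintenance DNA methyltransferase: after replication it copies the methyl mark from the parental strand of a CG site onto the new strand, guided there by Uhrf1. When it is lost, CG methylation is diluted at each division, and genes that fibroblasts keep silent through promoter methylation can be transcribed. In fibroblasts loss of Dnmt1 is also known to activate p53, the transcription factor that arrests or kills damaged cells, and a p53 hairpin beside the Dnmt1 hairpin lets the response be read with that arm lowered. RNA was measured here, and DNA methylation was not.

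The MEF table holds 11152 genes, and 9715 of them, with a mean value of at least 50 over the 4 libraries, were compared. The values are whole numbers that the authors had normalized within the table, so that all 4 libraries have a median of 208 and a highest value of 38803, which 10 genes share in each library. A change among the most abundant genes, such as Fn1, listed at 38803 in all 4 libraries, is therefore not measurable. Every ratio is the log2 of (value + 5) in the library with shDnmt1 over (value + 5) in its reference, which understates the change of low genes. With 1 library per group a ratio has no replicate error and no p-value, and the depth in reads is unknown. As a rough scale for the spread between libraries, the ratio of the library labelled Dnmt1 to the control had an SD of 0.20 over the 9715 genes, and 0.885% of genes passed 1.5-fold in it. These libraries differ in their labelled constructs and are not replicates, so that spread is not noise alone. The SD was 0.27 for shDnmt1 over control and 0.32 for shDnmt1 with shp53 over shp53.

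The labels of cell type and hairpin were checked first. Of the 37 fibroblast and mesenchymal genes listed, 36 were measured, all 36 with a mean of at least 50, while 4 of 20 epithelial markers, 3 of 12 endothelial markers and 2 of 17 macrophage and leukocyte markers reached that mean. Dnmt1 stood at 957 in the control, 208 with shDnmt1, 1622 with shp53 and 410 with both hairpins. It was thus lowest in the libraries with the Dnmt1 hairpin, 4.52-fold lower without shp53 (log2 ratio -2.18) and 3.92-fold lower with it (-1.97). In the library labelled Dnmt1 the gene was at 975, close to the control, so that label was not matched by a higher Dnmt1 value. Trp53, which encodes p53, stood at 1008 in the control, 966 with shDnmt1, 157 with shp53 and 186 with both hairpins, and so was low only in the 2 libraries labelled with the p53 hairpin.

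At 1.5-fold, 114 genes were higher (1.17%) and 207 lower (2.13%) with shDnmt1 than in the control, and 330 were higher (3.4%) and 259 lower (2.67%) when shp53 was present in both libraries. In both pairs 30 genes were higher (0.309%) and 50 were lower (0.515%). The 30 shared higher genes are 26.3% of those of the pair without shp53 and 9.09% of those of the pair with it. For the 50 shared lower genes these shares are 24.2% and 19.3%. Across the 9715 genes, which are not independent replicates, Pearson's r between the ratios of the 2 pairs was 0.31. At 2-fold in both pairs 6 genes were left, Selp, Sned1 and Mgp on the higher side and Dnmt1, Atp5f1 and Lyrm2 on the lower. The members just inside the 1.5-fold limit (log2 0.58) were Avpi1 (0.59 and 0.88) and Bod1l (-0.59 and -0.78), and just outside it lay Car8 (0.95 and 0.58) and Itpripl1 (-0.58 and -0.67).

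**Figure D1:**
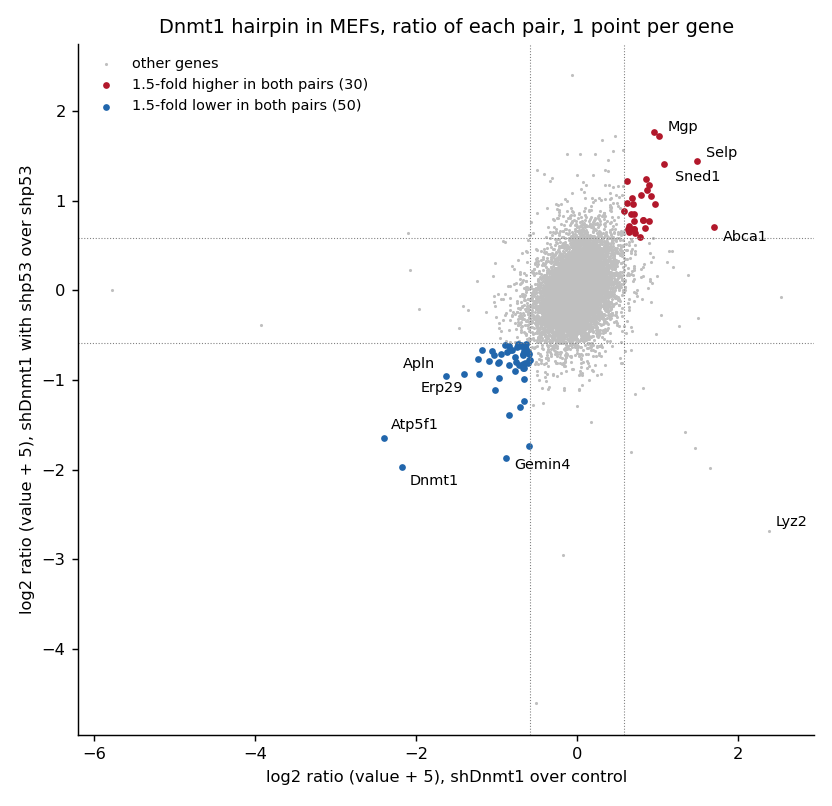
Each point is 1 of the 9715 genes compared, with the log2 ratio of shDnmt1 over control on the x axis and that of shDnmt1 with shp53 over shp53 on the y axis; dotted lines mark 1.5-fold. The 30 genes higher in both pairs (red) and the 50 lower in both (blue) lie at the ends of the cloud, Dnmt1 and Atp5f1 stand apart at the lower left, and Lyz2 lies at the lower right, with ratios of opposite sign.

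With shp53 alone, 18 of the 30 higher genes were 1.5-fold lower than in the control and 2 were higher. Of the 50 lower genes, 5 were lower and 21 higher, where 972 and 936 of all 9715 genes were. The 2 libraries compared there are the references of the pairs, so these counts are not independent of the choice of genes. The 30 higher genes are described by the role of each product, since no list of secreted proteins was counted over all genes. Sned1, a secreted matrix glycoprotein, stood at 226 in the control, 484 with shDnmt1, 135 with shp53 and 366 with both hairpins (log2 ratios 1.08 and 1.41). Mgp, matrix Gla protein, an inhibitor of calcification, stood at 407, 828, 103 and 351 in the same order of libraries (1.02 and 1.72). In each case the library with shDnmt1 was the higher of its pair, while the library with both hairpins lay below that with shDnmt1 alone, and the library with shp53 alone was the lowest of the 4. Col5a1, a chain of the fibrillar type V collagen, was the most abundant gene of the group, at 8038, 12464, 5617 and 9030 (0.63 and 0.68). Sparcl1, a matricellular protein, stood at 47, 90, 31 and 73, and Nov, a matricellular protein of the CCN family, at 105, 204, 189 and 399. Adamts2, which cleaves the amino-terminal propeptide of fibrillar procollagens, was at 72, 121, 51 and 96. Further members with matrix or secreted products were Tgfbi, an integrin-binding matrix protein, Mfap2, a microfibril component, Igfbp6, which binds insulin-like growth factors, and Nbl1, which binds bone morphogenetic proteins, with ratios from 0.62 to 0.97 in the 2 pairs.

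Selp, P-selectin, the adhesion receptor by which endothelium and platelets capture leukocytes, had the largest smaller ratio of all, at 91 in the control, 264 with shDnmt1, 50 with shp53 and 145 with both hairpins (1.49 and 1.45). Angpt2, a ligand of the endothelial receptor Tie2, stood at 67, 136, 37 and 77 in that order, a ratio of 0.97 in each pair. Of 12 endothelial markers listed 3 were compared, with medians of 0.07 and -0.04, and of these Kdr, a receptor for vascular endothelial growth factor, was past 1.5-fold lower in both pairs (139, 86, 306 and 127). Aqp1, a water channel, stood at 150, 284, 350 and 602, lowest in the control and highest with both hairpins. Slc14a1, a urea transporter, was at 33, 61, 52 and 114. Abca1, which exports cholesterol to apolipoproteins, stood at 120, 402, 58 and 98, with the largest ratio of the group without shp53 (1.70) and a ratio of 0.71 with it.

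Enzymes made up most of the other named members. Pla2g7, a secreted phospholipase that inactivates platelet-activating factor, stood at 112, 207, 41 and 104. Gsta4, a glutathione transferase for lipid aldehydes, stood at 83, 151, 35 and 64, and was the only 1 of 14 Nrf2 and glutathione genes compared to pass in both pairs. Nptx1, a secreted pentraxin known from neurons, was at 323, 605, 131 and 302, and Abhd14b, a hydrolase, at 42, 78, 34 and 62. Rnaset2a, a ribonuclease gene with the near-identical copy Rnaset2b, is uncertain: it stood at 55, 112, 46 and 168 while the copy was at 485, 504, 342 and 319, and the library labelled Dnmt1 listed it at 158, above shDnmt1. With that library in place of the control, 19 of the 30 higher genes still passed and 29 kept their direction, Rnaset2a being the exception.

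**Figure D2:**
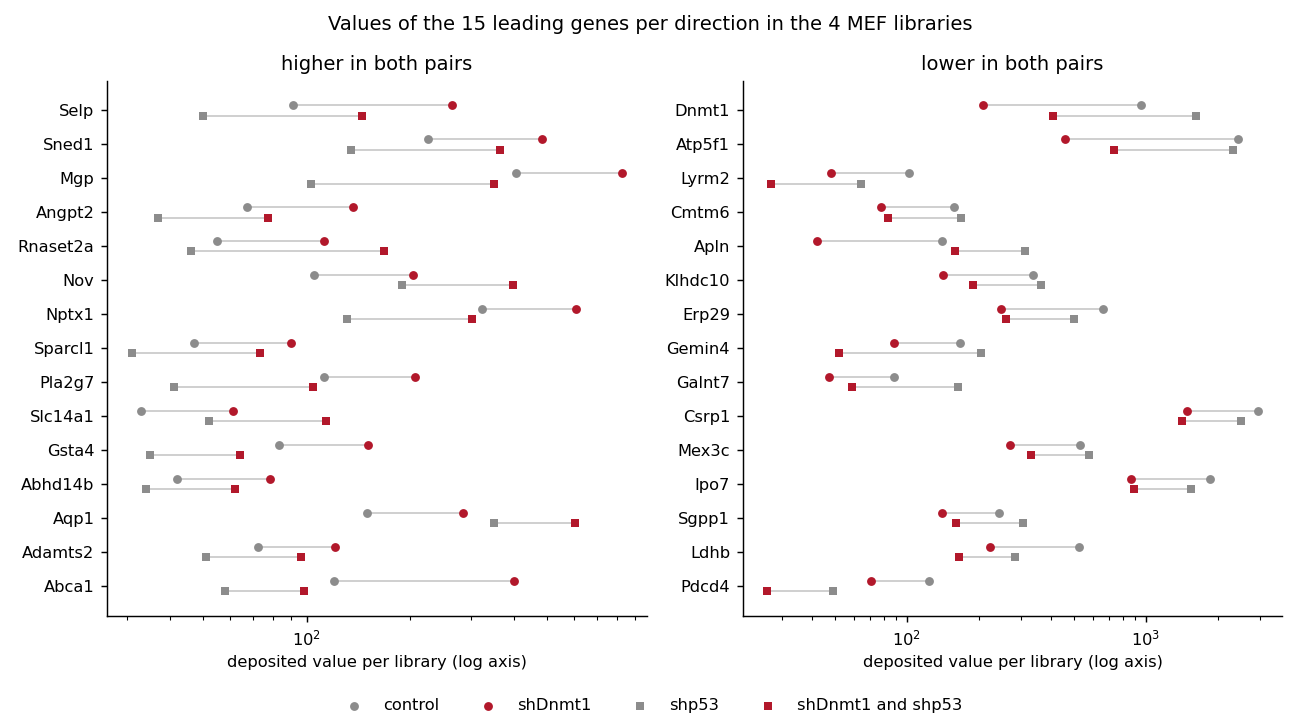
Deposited values on a log axis in the 4 MEF libraries for the 15 genes per direction with the largest smaller ratio of the 2 pairs; circles are the pair without shp53, squares the pair with it, grey the reference and red the library with shDnmt1. The line between circles and the line between squares point the same way for every gene shown, which the choice of genes fixes, while their lengths differ, as for Abca1 and Apln.

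Among the lower genes, Atp5f1, a subunit of the stalk of mitochondrial ATP synthase, had ratios about as low as those of the targeted gene. It stood at 2438 in the control, 457 with shDnmt1, 2321 with shp53 and 736 with both hairpins, which is 5.29-fold lower without shp53 (-2.40) and 3.14-fold lower with it (-1.65). Erp29, a chaperone of the endoplasmic reticulum, stood at 662, 248, 500 and 260 (-1.40 and -0.93). For both genes the reference libraries and the library labelled Dnmt1 (2495 and 669) were close together and the 2 libraries with shDnmt1 lay far below them. Exons of Atp5f1 overlap those of Wdr77 on the other strand, and exons of Erp29 those of Tmem116 and Naa25; how the authors assigned reads by strand is not given in the sources used here. Of the 80 genes that agreed, 19 share exon bases with another annotated gene, 6 of them with a gene on the same strand.

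Other lower genes had varied roles. Apln, the ligand of the apelin receptor, stood at 140, 42, 312 and 159 (-1.63 and -0.95), so the library with both hairpins was above the control although lower than its own reference. Csrp1, a LIM-domain protein of the actin cytoskeleton, was at 2951, 1490, 2497 and 1421, and Ipo7, a nuclear import receptor, at 1860, 866, 1551 and 893. In both of these the 2 libraries with shDnmt1 were close to each other and apart from the references. Ldhb, a lactate dehydrogenase subunit, stood at 526, 222, 284 and 165. Lyrm2, a mitochondrial LYR-motif protein, was at 102, 48, 64 and 27, and Cmtm6, a membrane protein that stabilizes PD-L1, at 157, 78, 168 and 83. Gemin4, of the complex that assembles spliceosomal ribonucleoproteins, stood at 167, 88, 204 and 52, and shares exon bases with Glod4 on the same strand. The remaining leading members, Klhdc10, Galnt7, Mex3c, Sgpp1 and Pdcd4, had ratios from -0.76 to -1.39. With the library labelled Dnmt1 in place of the control, 36 of the 50 lower genes still passed and all 50 kept their direction.

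Genes of DNA replication and mitosis were lower as groups, by less than 1.5-fold for most members. Of 35 G2/M and mitosis genes compared, 31 (88.6%) had a ratio below 0 in both pairs, against 29.4% of all genes compared, and none was above 0 in both. Their median ratio was -0.55 without shp53 and -0.18 with it, where the median of all genes was 0.00 in each pair. At 1.5-fold, 17 of the 35 were lower without shp53 (2.13% of all genes) and 2 with it (2.67% of all genes), and these 2, the kinetochore proteins Cenpe and Cenpf, were lower in both. Cenpf stood at 222, 95, 597 and 375 and Cenpe at 373, 202, 870 and 539, so the libraries with shp53 were above those without it at either state of Dnmt1. Mki67, the proliferation marker, stood at 1590, 857, 4403 and 2966 (-0.89 and -0.57). Of 38 G1/S and replication genes, 30 (78.9%) were below 0 in both pairs, with medians of -0.39 and -0.18. Rrm2, the inducible subunit of ribonucleotide reductase, at 1167, 602, 2112 and 1291, and Cdc6, which loads the replicative helicase, at 119, 73, 287 and 172, passed in both pairs. With the library labelled Dnmt1 as reference, the medians without shp53 were -0.49 for G2/M and -0.33 for G1/S genes, and 9 of the G2/M genes passed. A lower share of dividing cells and a lower RNA level per cell cannot be told apart in such bulk libraries, nor can fewer cells of any other kind.

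The list of DNA methyltransferases and their partners overlaps with replication genes. Of its 12 compared members only Dnmt1 passed 1.5-fold in either pair, and 9 were below 0 in both. Uhrf1, which recruits Dnmt1 to replicated DNA, stood at 607, 479, 1586 and 1204 (-0.34 and -0.40). Hells, a chromatin remodeller needed for CG methylation, stood at 577, 447, 1073 and 792, and Cdca7, its partner, at 65, 49, 204 and 140. Dnmt3a, a de novo methyltransferase, was at 174, 157, 163 and 142. The remaining members, Uhrf2, Cdca7l, Usp7, Pcna, Lig1, Trdmt1 and Zbtb24, had ratios between -0.35 and 0.29.

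Gene classes known to depend on CG methylation gave few members to read. Of 43 germline genes silenced by promoter methylation, 4 had a row and 2 reached the mean of 50, Sycp1 (83, 70, 78 and 81) and Tex15 (122, 110, 95 and 82), both meiotic genes that differed by less than 1.5-fold in each pair. Dazl, a germ cell RNA-binding protein, was listed at 1, 1, 2 and 39, highest with both hairpins, but the library labelled Dnmt1 held 22. Among 27 imprinted genes, which are expressed from the allele of 1 parent, none passed in both pairs and the medians were 0.00 and 0.06. H19 stood at 9045, 7163, 12476 and 9988, and Dlk1, with the largest mean ratio of the list, at 759, 1094, 672 and 1008 (0.52 and 0.58). The 36 fibroblast and mesenchymal genes had medians of 0.16 and 0.25, with 23 above 0 in both pairs (63.9%, against 30.2% of all genes), and Col5a1 was the only 1 to pass in both. Thbs2, a matricellular thrombospondin, stood at 1573, 2387, 1151 and 1464, past 1.5-fold only without shp53, and Col3a1, the type III collagen chain, at 5387, 7186, 3541 and 6727, past it only with shp53; the difference between the pairs has no test.

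**Figure D3:**
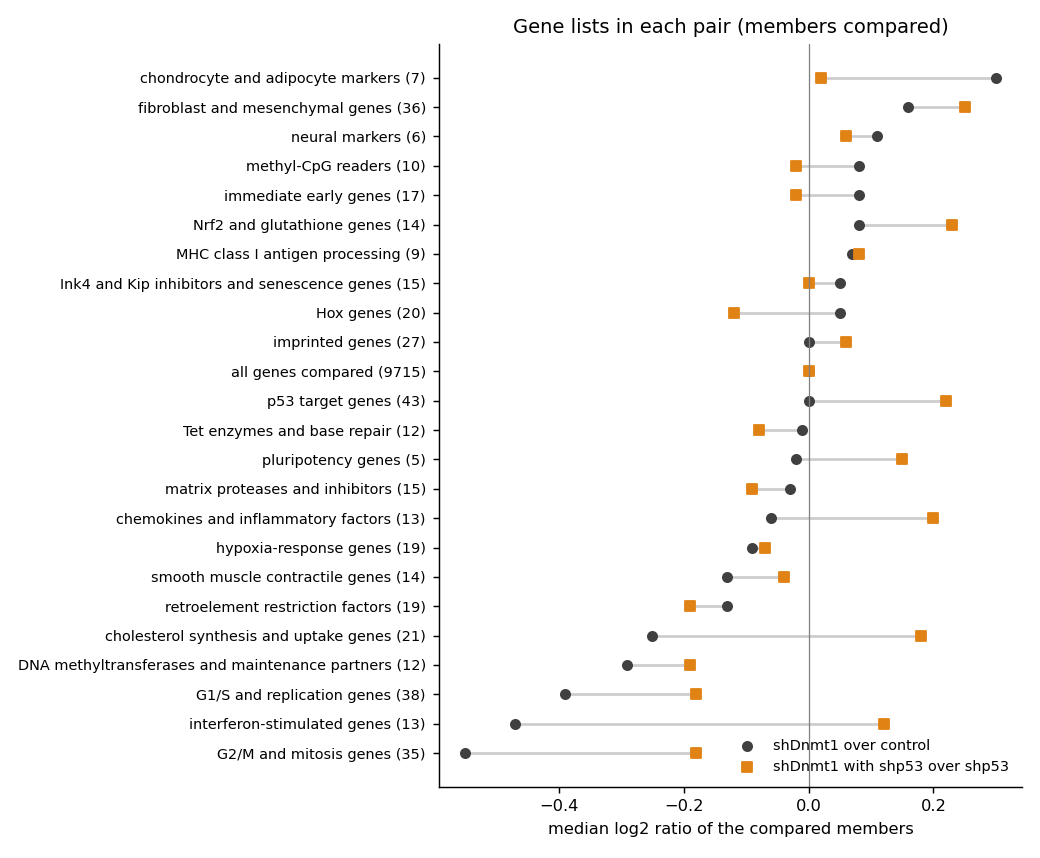
Median log2 ratio of the compared members of each gene list (number of members in brackets), for shDnmt1 over control (dark circles) and shDnmt1 with shp53 over shp53 (orange squares). The G2/M list has the lowest median without shp53 (-0.55), the G2/M and G1/S lists are both at -0.18 with shp53, and the interferon list moves from -0.47 to 0.12.

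Promoters were compared for CG sites, the substrate of Dnmt1, over the 300 bases from 250 before to 50 after the start of each gene in RefSeq (GRCm38.p6). Of the 30 higher genes 19 matched an entry within 1000 bases of the start in the authors' table, with a median of 20 CG, and of the 50 lower genes 40 matched, with a median of 21.5. The median of the 7089 matched genes among all those compared was 23. Promoters with at most 5 CG were 3 of 19 (15.8%) among the higher genes, 5 of 40 (12.5%) among the lower genes and 4.43% over all genes, so in both directions the share was above that of all genes, on 3 and 5 promoters. The 3 include the uncertain Rnaset2a and the 5 include Dnmt1, the targeted gene. The share was alike, 15.2% and 16.7%, in the genes more upward and more downward with shp53 (defined below), so it was not particular to agreeing genes. The 250 bases before the start are printed below in capitals at each CG, for the sparse promoters of Selp, chr1:164115014-164115263 on the + strand, and Ly6c1, a membrane-anchored antigen of the Ly6 family, chr15:75048838-75049087 on the - strand, which hold 3 and 1 CG in these 250 bases. For contrast follow the dense promoters of the matrix genes Sned1, chr1:93235647-93235896, and Col5a1, chr2:27886175-27886424, with 23 and 28 CG, and that of the lower replication gene Cdc6, chr11:98907901-98908150, with 18, all on the + strand. All coordinates are of mm10.
Selp: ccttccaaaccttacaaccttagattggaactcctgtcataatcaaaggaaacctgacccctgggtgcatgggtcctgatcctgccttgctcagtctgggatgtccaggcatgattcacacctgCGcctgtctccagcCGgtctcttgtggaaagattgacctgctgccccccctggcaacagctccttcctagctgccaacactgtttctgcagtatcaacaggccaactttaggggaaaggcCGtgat
Ly6c1: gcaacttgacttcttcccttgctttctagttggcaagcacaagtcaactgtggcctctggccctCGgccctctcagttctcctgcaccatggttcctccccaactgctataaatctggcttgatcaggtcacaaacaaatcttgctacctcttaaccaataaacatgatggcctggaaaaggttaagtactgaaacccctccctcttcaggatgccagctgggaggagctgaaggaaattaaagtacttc
Sned1: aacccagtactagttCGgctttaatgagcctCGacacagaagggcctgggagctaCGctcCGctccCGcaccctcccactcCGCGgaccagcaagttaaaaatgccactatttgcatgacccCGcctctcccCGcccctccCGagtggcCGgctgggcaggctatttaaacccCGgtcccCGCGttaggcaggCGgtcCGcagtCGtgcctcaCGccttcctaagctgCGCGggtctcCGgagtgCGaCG
Col5a1: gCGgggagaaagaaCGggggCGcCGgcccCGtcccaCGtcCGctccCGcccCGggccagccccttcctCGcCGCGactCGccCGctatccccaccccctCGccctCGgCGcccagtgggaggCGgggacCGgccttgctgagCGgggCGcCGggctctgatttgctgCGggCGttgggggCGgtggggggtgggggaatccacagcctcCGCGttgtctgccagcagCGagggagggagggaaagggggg
Cdc6: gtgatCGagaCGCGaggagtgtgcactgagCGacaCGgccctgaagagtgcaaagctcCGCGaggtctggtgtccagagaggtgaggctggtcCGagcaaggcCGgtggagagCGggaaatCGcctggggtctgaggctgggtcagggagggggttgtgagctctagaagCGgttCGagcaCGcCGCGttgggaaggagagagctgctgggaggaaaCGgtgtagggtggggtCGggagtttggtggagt
Each of the first 4 belonged to a gene that was higher in both pairs, by log2 ratios of 1.49 and 1.45 for Selp and 0.65 and 0.71 for Ly6c1 beside 1.08 and 1.41 for Sned1 and 0.63 and 0.68 for Col5a1. Of the E2F family's sites, TTTGGCGC, TTTCGCGC, TTTCCCGC and TTTGCCGC were searched on both strands of the 300 bases, with overlapping matches counted as 1 promoter. At least 1 was present in 5 of 40 lower genes (12.5%), 2 of 19 higher genes (10.5%) and 4.67% of all matched genes. The match in Cdc6 is to TTTCCCGC on the reverse strand. The authors' span of Cdc6 starts at 98907801, so the stretch printed, though before the RefSeq start, lies inside that span.

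The reprogramming libraries hold a hairpin of the same label, shDnmt1, in samples that the MEF pairs did not use. In the additive limma model over the 14 SKOM libraries (10711 genes, 8 residual degrees of freedom, Benjamini-Hochberg adjusted p under 0.05), no gene was called higher (0%) and 2 genes were called lower (0.0187%) with shDnmt1. At an unadjusted p under 0.05 the model gave 178 higher and 205 lower genes. The 2 genes called, Atp5f1 and Erp29, are among the 50 that were lower in both MEF pairs. Atp5f1 fell by 0.97 ± 0.11 (SE) on the log2 scale, with an adjusted p of 0.00939 in limma. Erp29 fell by 0.68 ± 0.08 (SE), with an adjusted p of 0.0133 in limma. Dnmt1 itself had an estimate of -0.94 ± 0.15 (SE) and was not called (limma, adjusted p = 0.153), its value being 984 and 527 in the control and shDnmt1 libraries without vitamin C and 2346 and 1154 in those with it.

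Both calls could be lost with 1 library. With the Vc- control, the Vc- shDnmt1 or the Vc+ Tet1CD and shDnmt1 library left out, no gene was called lower, and with the Vc- Tet1CD and shDnmt1 or the Vc+ control library left out 1 gene was. In 4 SKOM pairs that share no library Atp5f1 had log2 ratios of -1.10, -0.83, -0.67 and -1.28 and Erp29 of -0.91, -0.56, -0.55 and -0.69, for the control pair and the Tet1CD pair without and then with vitamin C. Tet1CD is the catalytic domain of Tet1, an enzyme that oxidizes methylated cytosine.

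The agreeing MEF genes as a whole were then read in SKOM cells, as counts with no test between the directions. Of the 50 lower genes 45, Atp5f1 and Erp29 included, were in the SKOM model, 33 with an estimate below 0 and a median of -0.12. Of these 45, 18 (40%) were lower in all 4 disjoint SKOM pairs, against 6.13% of all genes measured in both cell types, and 17 of 44 (38.6%) with Dnmt1 left out. Cmtm6, Csrp1, Klhdc10, Mex3c, Sgpp1 and Pdcd4 were among them. Of the 30 higher genes 23 were in the model, 13 with an estimate above 0 and a median of 0.03, and 2 (8.7%) were higher in all 4 pairs, against 4.71% of all genes. Mgp had an estimate of -0.27 and Sned1 of -0.03 there, and Selp, Angpt2, Nov, Nptx1 and Sparcl1 were not in the SKOM model. The mitotic genes Cenpe and Cenpf, lower in both MEF pairs, had SKOM estimates of 0.32 and 0.44.

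**Figure D4:**
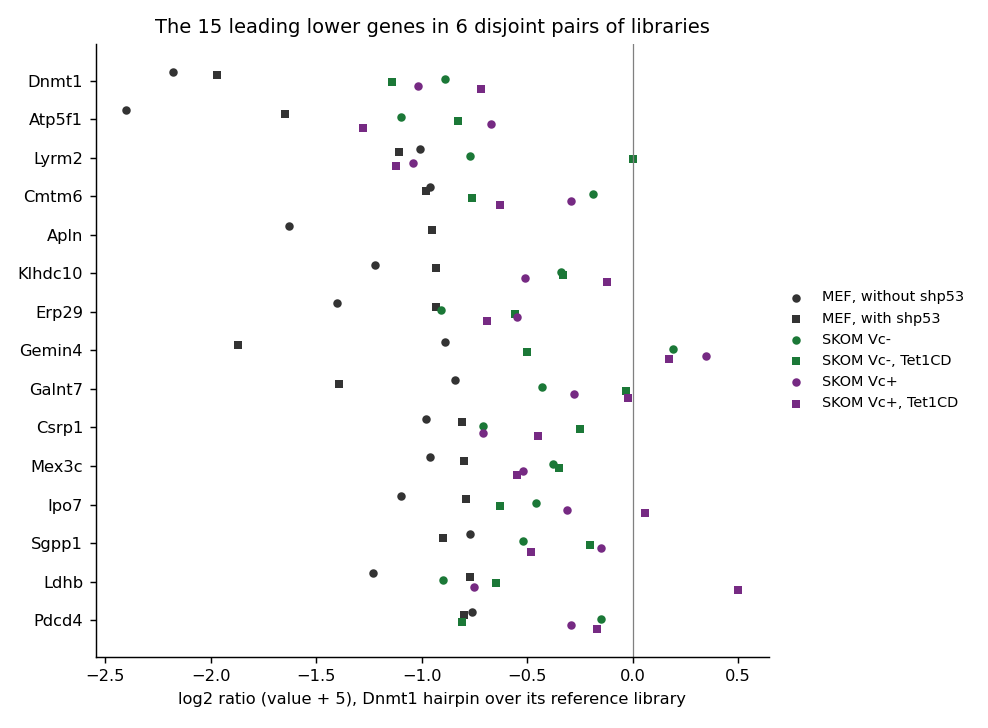
Log2 ratio of the library with the Dnmt1 hairpin over its reference in the 2 MEF pairs (dark) and 4 SKOM pairs (green without, purple with vitamin C; squares with Tet1CD) for the 15 leading lower genes. Atp5f1 and Erp29 are left of 0 in all 6 pairs, Gemin4 is right of 0 in 3 of the 4 SKOM pairs, and Apln was not measured in SKOM cells.

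Genes whose ratio differed between the pairs by at least 2-fold, with 1.5-fold in at least 1 pair, were counted as dependent on the p53 hairpin. There were 60 with a ratio more upward with shp53 (0.618%) and 41 with a ratio more downward (0.422%). In the 60, 38 passed 1.5-fold only with shp53, 19 only without it and 3 in opposite directions, and 13 were predicted or unnamed genes. In the 41, these numbers were 21, 10 and 9, with 1 that passed in the same direction in both pairs, and 9 were predicted or unnamed. Of all genes compared, 9 passed 1.5-fold higher without shp53 and lower with it (0.0926%) and 3 the reverse (0.0309%). Most of the dependent genes were low: the median value was 76.5 in the 60 and 69.8 in the 41, and 40 and 31 of them had a mean between 50 and 100. An interaction of 4 single libraries leaves no residual degree of freedom, so none of these differences has a test. The titles of the control (Flag and shLuc) and the library with both hairpins name more constructs than those of the shDnmt1 and shp53 libraries. From reference to shDnmt1 library, the number named thus falls without shp53 and rises with it. Its part in these differences cannot be told apart from that of shp53, and was not tested.

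The gene with the most downward difference with shp53 was Lyz2, and 4 other genes known from macrophages or leukocytes are among the 10 named in this direction. Lyz2, the lysozyme of macrophages and granulocytes, stood at 129 in the control, 694 with shDnmt1, 368 with shp53 and 53 with both hairpins, with log2 ratios of 2.38 without shp53 and -2.69 with it, a difference of -5.07 (log2). Apoe, the apolipoprotein, stood at 38, 104, 115 and 35 (difference -2.93), and Ptprc, the leukocyte antigen CD45, at 53, 87, 72 and 17. Msr1, a scavenger receptor, was at 77, 130, 127 and 54, and Mmp12, macrophage elastase, at 68, 102, 107 and 59. In each of these 5 genes the control and the library with both hairpins were the lower 2 of the 4. With the library labelled Dnmt1 in place of the control, the difference between the pairs was -2.74 for Lyz2, -1.52 for Apoe, -1.73 for Ptprc, -1.32 for Msr1 and -0.83 for Mmp12, and of all 60 and 41 dependent genes 42 and 22 still passed. The whole list of macrophage and leukocyte markers did the same: 8 of its 17 members had a row, all 8 had a ratio above 0 without shp53 and below 0 with it, and their summed value was 258 in the control, 1124 with shDnmt1, 605 with shp53 and 120 with both hairpins. The defining markers Csf1r, C1qa and Cd68 stood at 7, 39, 20 and 4, at 1, 19, 16 and 1, and at 33, 98, 39 and 19. The library labelled Dnmt1, which carries no hairpin in its label, had a sum of 1079, as high as that with shDnmt1. The part of macrophage RNA in the other ratios was not tested. With ratios of opposite sign in the 2 pairs, none of the 8 could be among the 80 genes that agreed. Their absence there therefore says nothing of macrophage RNA in the ratios of those 80.

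Other named genes more downward with shp53 were Lsm7, of the complex that binds the tail of U6 and starts mRNA decay, at 23, 83, 78 and 16, Foxn3, a forkhead repressor, at 59, 108, 118 and 53, and Zfp526, a zinc finger protein, at 63, 95, 123 and 68. Pclo, a presynaptic scaffold protein, stood at 93, 82, 49 and 2. Zbed6, a repressor of Igf2 encoded within Zc3h11a, is uncertain: 1 row lists it at 191, 133, 117 and 0, while a second row under the same name has 315, 439, 322 and 343, and both lie within the span of Zc3h11a (978, 956, 779 and 854). In Lsm7, Foxn3 and Zfp526 too the control and the library with both hairpins were the lower 2 of the 4, while the library labelled Dnmt1 held 77, 64 and 79. With that library as reference the difference of Lsm7 was -2.08 instead of -3.63.

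**Figure D5:**
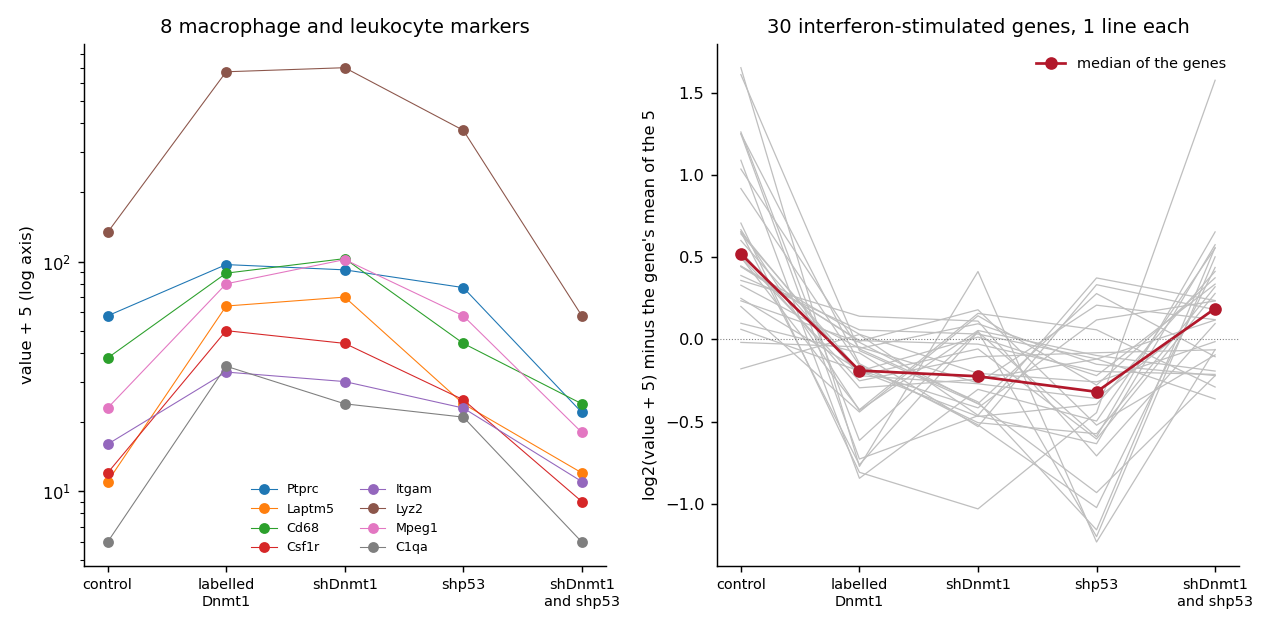
Left, value + 5 on a log axis of the 8 measured macrophage and leukocyte markers in 5 MEF libraries; right, log2(value + 5) of the 30 measured interferon-stimulated genes minus each gene's mean over the same 5 libraries, with the median in red. The markers at left are highest in the libraries labelled Dnmt1 and shDnmt1 and lowest in the control and in the library with both hairpins, and the median at right is 0.52 in the control, -0.22 with shDnmt1 and 0.19 with both hairpins.

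Interferon-stimulated genes, which cells switch on when viral nucleic acid or interferon is sensed, had ratios below 0 without shp53, and ratios of either sign with it; the difference between the pairs has no test. Of 43 listed genes 30 had a row, and all 30 had a ratio below 0 without shp53, while 21 were above 0 and 9 below 0 with it. Only 13 reached the mean of 50: their median ratio was -0.47 without shp53 and 0.12 with it, 6 of 13 were 1.5-fold lower without shp53 (2.13% of all genes), and 2 were 1.5-fold higher with it (3.4% of all genes). In both pairs 5 of the 13 were below 0. Stat2, a transducer of the type I interferon signal, stood at 215 in the control, 111 with shDnmt1, 104 with shp53 and 155 with both hairpins, and its partner Irf9 at 189, 108, 118 and 140. In these the control was the library that stood apart, above the other 3, and with the library labelled Dnmt1 in its place the difference of Stat2 between the pairs was 0.60 instead of 1.48. Ifitm3, which blocks virus entry, was at 795, 669, 377 and 662, so that here the shp53 library stood apart. The control was the highest of 5 libraries for 23 of the 30 genes, and with the library labelled Dnmt1 in its place the median of the 13 without shp53 was -0.02 and none passed 1.5-fold. With neither reference was a member of the 13 past 1.5-fold on the higher side in the pair without shp53.

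The other genes more upward with shp53 included Tap1, the peptide transporter of MHC class I loading and a p53 target, at 111, 87, 10 and 30, where the shp53 library was lowest. Tor3a, an interferon-responsive torsin, stood at 148, 118, 32 and 83, and Tmem208, a protein of the endoplasmic reticulum, at 101, 75, 26 and 71. These 3 were less than 1.5-fold apart in the control and with shDnmt1, and lowest with shp53 alone. Lars2, the mitochondrial leucyl-tRNA synthetase, was the most abundant of the 10 named by the rule, at 400, 281, 806 and 2049. The ratios of Lars2 are uncertain. Yam1, another dependent gene in this direction, had a like pattern, at 2012, 1319, 5199 and 7659. In the SKOM pairs without Tet1CD both genes changed sign between vitamin C states. Without and then with vitamin C, Lars2 had ratios of -2.68 and 1.78 and Yam1 of -3.03 and 2.52. A shared source of these changes was not tested. Park2, the ubiquitin ligase parkin, stood at 88, 84, 35 and 206, a difference of 2.46, or 1.60 with the library labelled Dnmt1 (46) as reference. Further genes were Asb5, a muscle-expressed adaptor of ubiquitin ligases, at 88, 45, 76 and 113, Mtcp1, an oncogene of the Tcl1 family, at 65, 13, 68 and 58, and Kcnh7, a potassium channel, at 71, 0, 84 and 63. For Mtcp1 and Kcnh7 the shDnmt1 library alone was low, and Kcnh7 is listed at 0 there.

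Among 43 compared targets of p53 the median ratio was 0.00 without shp53, where 0 were 1.5-fold higher and 1 lower, near the shares of all genes (1.17% and 2.13%). With shp53 the median was 0.22, and 8 were higher and 3 lower, where 3.4% and 2.67% of all genes were. Cdkn1a, the cyclin-dependent kinase inhibitor p21, stood at 2386 in the control, 2500 with shDnmt1, 767 with shp53 and 1052 with both hairpins (0.07 and 0.45), and Mdm2, the ubiquitin ligase of p53, at 2279, 2017, 802 and 826. Both were low in the 2 libraries with shp53 and differed by less than 1.5-fold within each pair. Rrm2b, the p53-inducible subunit of ribonucleotide reductase, was the only target past 1.5-fold lower in both pairs, at 150, 88, 118 and 76. Gdf15, a stress-induced cytokine, was at 50, 32, 5 and 23, and Btg2, an antiproliferative gene, at 300, 338, 70 and 127. In both of these the shp53 library was lowest and the library with both hairpins lay between it and the libraries without shp53.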

How the data were processed

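RNA was sequenced from 21 libraries, 7 of them in the MEF table. Trizol extraction and an Illumina TruSeq RNA kit were used, per the labels' protocols. Bowtie, RSEM and the build mm10 are named, without versions or roles, per the submitters' processing notes. The values the authors deposited have the unit score: whole numbers normalized within each table, whose sorted lists are nearly the same in every library. The normalization method is not given in the sources used here, depth is unknown, and no count test was used. All value columns of the tables belong to a labelled sample.

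Groups came from the sample titles. MEF ratios used log2(value + 5) and genes whose mean in the 4 libraries was at least 50. A gene agreed when both pairs passed 1.5-fold in the same direction, and depended on shp53 when the pairs differed by at least 2-fold with at least 1 past 1.5-fold. The 14 SKOM libraries were fitted with limma 3.58.1 in R 4.3.3 on log2(value + 5) of genes with a mean of at least 10 and terms for table, Dnmt1, Tet1CD, shp53 and shDnmt1. The shp53 term rests on libraries that also carry shDnmt1, so the shDnmt1 estimate comes mainly from the other libraries. The labels give no separate cultures, so its residual spread may be technical and also holds departures from additivity. Tested on simulated data of the same 10711 genes with 200 changed, that model recovered 53.7%, 91% and 98.5% of changes of 0.58, 1.0 and 2.0 on the log2 scale, and 3.57% of its calls were false. The simulated errors were normal and independent and the effects exactly additive. The 200 changed genes also ease the p-value adjustment, and the real fit called 2. These rates therefore need not hold for the real libraries.

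Named genes were Dnmt1, Trp53, Atp5f1 and Erp29, the 15 agreeing genes per direction with the largest smaller ratio, the 10 dependent genes per direction with the largest difference, up to 6 agreeing members of a list (otherwise up to 2 with the largest mean ratio), and the DNA methyltransferase list. Predicted genes were counted and not named, and some genes that the rule names are not reported here. Names outside this rule (further agreeing genes, list members shown as examples, near-copies and overlapping neighbours) were chosen after their values were seen. The members and the 29 gene lists were chosen with earlier results of these data known. Identifiers were matched to GENCODE M21 (99.5% found). Alternatives were another pseudocount, filter, fold, scaling or reference library, an additive limma fit of the 4 libraries, and SKOM fits by table or without each library.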

Additional observations from a re-analysis of the deposited data

Results flagged for a closer look

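A set of 12 genes passed 1.5-fold in opposite directions in the 2 pairs (0.124% of the genes compared). Each group has 1 library, so the difference between the pairs was not tested. In the pair without shp53 9 of them were higher and 3 lower. The difference of log2 ratios, with shp53 minus without, was -5.07 for Lyz2, -3.63 for Lsm7, -3.23 for Gm26718, -2.93 for Apoe, -2.47 for Ptprc, -1.90 for Foxn3, -1.88 for Msr1, -1.34 for Nkd2 and -1.28 for Lrp3. It was 1.20 for Serpinb9, 1.22 for 2610002J02Rik and 2.74 for Gm10146. Nkd2, an inhibitor of Wnt signalling, stood at 60 in the control, 99 with shDnmt1, 93 with shp53 and 57 with both hairpins. Serpinb9, a granzyme B inhibitor, stood at 79, 51, 29 and 47 in that order. With the library labelled Dnmt1 in place of the control, 1 of the 12 still passed in opposite directions.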

How the results depend on the processing

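Centring each pair on its median and quantile normalization left every count of the MEF pairs within 1.5 times its value. These 2 settings could change little, since each pair already had a median ratio of 0.00 and the libraries nearly the same sorted values. Neither centring, quantile normalization nor a pseudocount of 1 reversed the mean ratio or the difference reported for a named gene. Without a filter on low values, 72 genes agreed on the higher and 84 on the lower side, 186 and 171 depended on shp53 (more upward, more downward), and 289 and 347 genes were higher and lower without shp53 and 575 and 463 with it. With a mean of at least 200 these numbers were 11 and 23, 10 and 4, 27 and 95, and 121 and 76. A pseudocount of 20 left 28 agreeing lower genes and 30 and 21 dependent ones. At 2-fold in both pairs 3 genes agreed in each direction. A difference of at least 1.5-fold gave 233 and 155 dependent genes, and 1 of at least 3-fold gave 9 and 13. The additive limma fit of the 4 MEF libraries, with 1 residual degree of freedom, called 0 genes higher and 1 lower, Dnmt1 (-2.07 ± 0.11 SE, adjusted p = 0.00914), where 617 and 684 genes had an unadjusted p under 0.05. In SKOM cells the fits of the Vc- table and the Vc+ table alone, with 2 residual degrees of freedom each, called 0 lower genes. Leaving out each SKOM library in turn gave 0 to 1 higher and 0 to 3 lower genes; the lone libraries left are assumed to vary like the rest. The library labelled Dnmt1 as reference was chosen after seeing the data; it moved 16 of 50 named values by more than 0.20 (log2), the SD of that library over the control, and gave 36 and 43 agreeing genes (19 of the 30 and 36 of the 50 among them), 66 and 46 dependent genes (42 of the 60 and 22 of the 41), and 126 higher and 168 lower genes without shp53 (48 of the 114 and 99 of the 207). In the pair without shp53 it turned the ratios of Rnaset2a (0.96 to -0.48), Apoe (1.34 to -0.06), Ptprc (0.67 to -0.08), Park2 (-0.06 to 0.80) and Pclo (-0.17 to 0.25). No paired analysis was possible because the groups share only 1 replicate number; the additive fit of the 4 libraries takes shp53 as its block in place of it. No MEF library could be left out, since each is alone in its group. Depth is unknown, so no limit from counting was computed.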

Other observations

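Cholesterol synthesis and uptake genes, which are switched on together by the sterol-sensing factor Srebp2, differed in sign between the pairs without any member passing 1.5-fold in either. The median ratio of the 21 genes was -0.25 without shp53 and 0.18 with it, 3 were below 0 in both pairs and 1 above 0 in both. Their summed value was 10100 in the control, 8522 with shDnmt1, 6585 with shp53 and 7491 with both hairpins, and 10203 in the library labelled Dnmt1. The difference has no test.

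Il1rl1, the receptor of interleukin 33, stood at 1987 in the control, 969 with shDnmt1, 2021 with shp53 and 1935 with both hairpins, so the library with shDnmt1 alone stood apart (log2 ratios -1.03 and -0.06). It was chosen after its values were seen.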
